A study of Bos taurus with 21 samples.

Results

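In the hypothalamus of heifers on the same restricted diet, 88 genes of 13435 tested separated the libraries by ovulation outcome. Their levels did not overlap between libraries of heifers that stopped ovulating and libraries of heifers that kept ovulating. A gene was a member of this set when its lowest Restricted Anovulatory (RA) library lay above its highest Restricted Ovulatory (RO) library, or the reverse, on log2 CPM, the log2 of read counts scaled to a common library size. In all 89 genes met this condition, which is 0.662% of the genes tested, and 1 of them is left out by the rule that defines the set. Of the 88 members, 24 were higher and 64 lower in RA, and counting the gene left out these are 0.179% and 0.484% of the genes tested. The members were selected on the log2 CPM values of these same RA and RO libraries, so every difference between RA and RO given here describes the choice and is not a test of it.

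The 21 libraries came from the hypothalamus of heifers (Bos taurus), with 7 libraries in each of 3 groups. RA heifers received 0.4 Mn, the feeding unit used in the labels, and did not ovulate. RO heifers received the same 0.4 Mn and ovulated. Control heifers received 1.2 Mn and ovulated, and tissue from all groups was taken after 18 days of differential feeding. RA and RO were thus divided by the outcome of the animals and not by a treatment. No strain or age is given in the sources used here. Replicates carry numbers only, and nothing says that they came from separate animals, so each p-value reflects only how these samples vary, which may be technical.

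The hypothalamus is the brain region that senses energy reserves and controls reproduction. Its neurons release gonadotropin-releasing hormone in pulses, which drives the pituitary to secrete the hormones that bring about ovulation. Undernutrition is known to slow those pulses in cattle, and some animals on a poor diet stop cycling before others.

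The count tables list Ensembl-style identifiers without names, and 0 of 22984 identifiers matched the reference gene table used here. The members could therefore not be assigned to pathways or cell types, the lists of appetite, reproductive and cell type marker genes were not applied, and the tissue label was not checked against markers. In whole tissue, fewer cells of a type and less RNA per cell cannot be told apart. Total counts ran from 3379050 to 4476586 per library. The deposited names of the libraries carry a number that reads as a date, called dates A to D here in sorted order. RA libraries fell on date A (1 library), date C (2) and date D (4), RO libraries on date A (1) and date B (6), and Control libraries on date A (1), date B (1) and date C (5). Control replicate 5 was the library least like its group, correlating with it by 0.927 on average where the other Controls had 0.956 to 0.966.

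The separation between the restricted groups was complete but narrow for most members. The gap between the nearest RA and RO libraries had a median of 0.031 log2 CPM and ran from 4.8e-05 to 0.25. The difference between the group means was larger, with a median fold of 1.27 and a range from 1.09 to 2.15. It stayed under 1.2-fold in 25 members and exceeded 2-fold in 1. Among the 24 higher members the median log2 fold change of RA against RO was 0.28, and among the 64 lower members it was -0.37. The other 13346 genes tested had a median absolute log2 fold change of 0.14. Members were of middling abundance, with a median of 40.7 CPM (range 5.74 to 539) against 44.1 CPM in the other genes tested, and 2 of the 88 had fewer than 10 counts in some library.

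**Figure D1:**
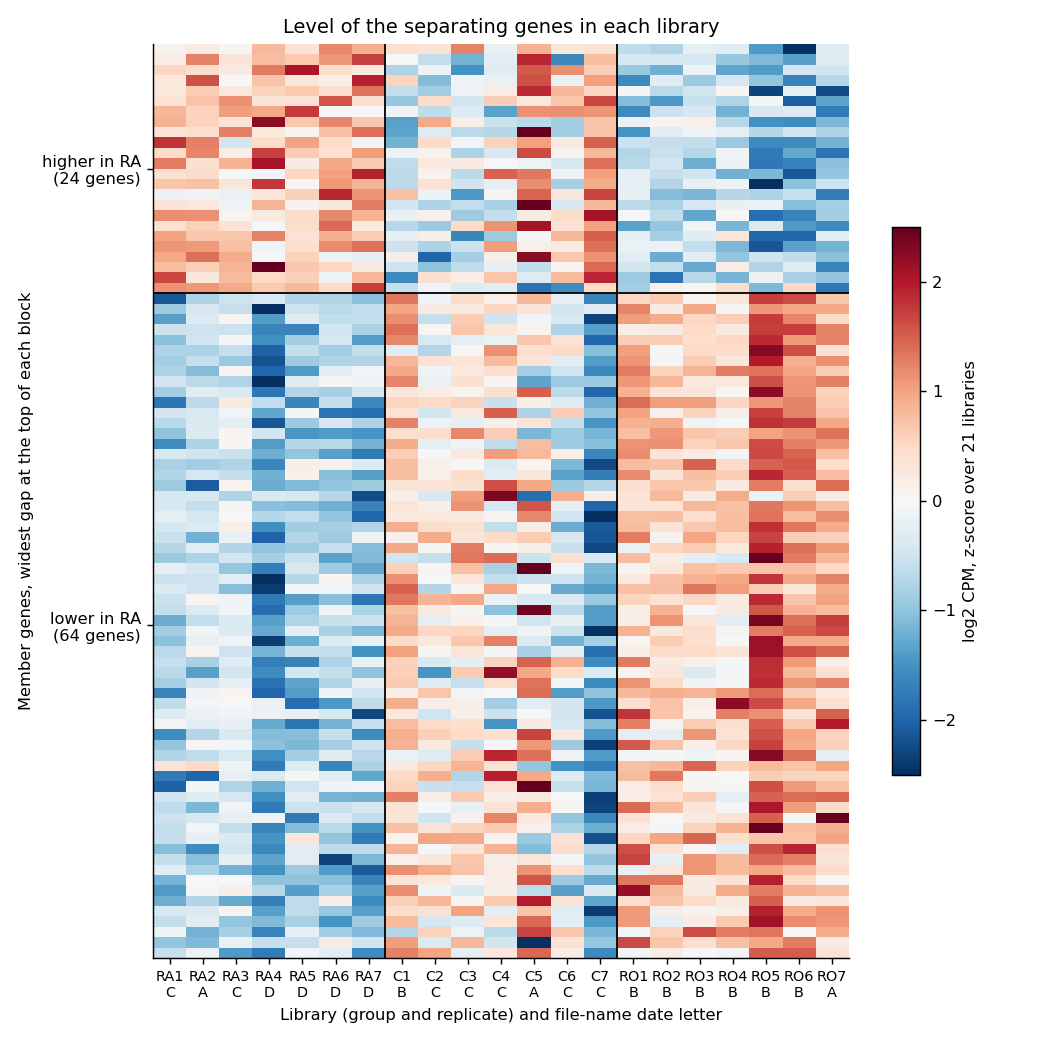
Level of the 88 member genes (rows) in the 21 libraries (columns, with the file-name date letter), as z-scores of log2 CPM over all libraries. The RA and RO blocks have opposite colours because the genes were chosen for it, while the Control block is mixed and Control replicate 7 (C7) has the colours of RA.

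The higher member with the widest gap was ENSBTAG00000040473. Its level in RA was at lowest 21.6, at the median 23.9 and at highest 30.6 CPM, in RO 7.84, 17.7 and 19.9 CPM, and in Controls 20.2, 23.9 and 31.0 CPM. All 7 Controls lay on the RA side of the midpoint between the restricted groups and above every RO library, and 6 of them were inside or above the RA range. RO replicates 5 and 6 were the low libraries of the RO group, at 13.9 and 7.84 CPM. Its log2 fold change was 0.61 for RA against RO (SE 0.16, edgeR quasi-likelihood adjusted p = 0.0927), 0.018 for RA against Control (SE 0.15, edgeR adjusted p = 0.971) and -0.59 for RO against Control (SE 0.16, edgeR adjusted p = 0.622).

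ENSBTAG00000011127 had the next gap in that direction. RA libraries ran from 82.5 over a median of 90.1 to 103.6 CPM, RO libraries from 65.4 over 75.2 to 76.6 CPM, and Controls from 63.1 over 77.1 to 106.7 CPM. Here Controls spanned both restricted groups. Control replicates 5 and 7 lay in or above the RA range at 106.7 and 89.9 CPM, and replicate 6 lay below every RO library. The log2 fold change was 0.34 for RA against RO (SE 0.092, edgeR adjusted p = 0.0948), 0.20 for RA against Control (SE 0.091, edgeR adjusted p = 0.532) and -0.14 for RO against Control (SE 0.092, edgeR adjusted p = 0.787).

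Of the lower members, ENSBTAG00000011693 had the widest gap. It measured 4.34, 7.60 and 8.82 CPM at the lowest, median and highest RA library, 10.6, 13.3 and 20.1 CPM in RO, and 5.31, 10.8 and 17.1 CPM in Controls. RA replicate 1 was the low library of its group. Control replicate 7, at 5.31 CPM, was the only Control inside the RA range, and Control replicate 1, of date B like 6 of the RO libraries, was the highest Control. The log2 fold change was -0.98 for RA against RO (SE 0.21, edgeR adjusted p = 0.0927), -0.62 for RA against Control (SE 0.21, edgeR adjusted p = 0.532) and 0.35 for RO against Control (SE 0.21, edgeR adjusted p = 0.772).

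ENSBTAG00000025320, next among the lower members, was a gene of low level. It measured 1.34, 4.22 and 4.61 CPM in RA, 5.52, 7.84 and 8.71 CPM in RO and 4.47, 5.91 and 7.95 CPM in Controls, again as lowest, median and highest. The lowest library, RA replicate 4, held 5 counts, and the highest held 32. Control replicate 6, at 4.47 CPM, was the only Control inside the RA range. The log2 fold change was -0.94 for RA against RO (SE 0.20, edgeR adjusted p = 0.0927), -0.63 for RA against Control (SE 0.20, edgeR adjusted p = 0.532) and 0.31 for RO against Control (SE 0.19, edgeR adjusted p = 0.784).

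**Figure D2:**
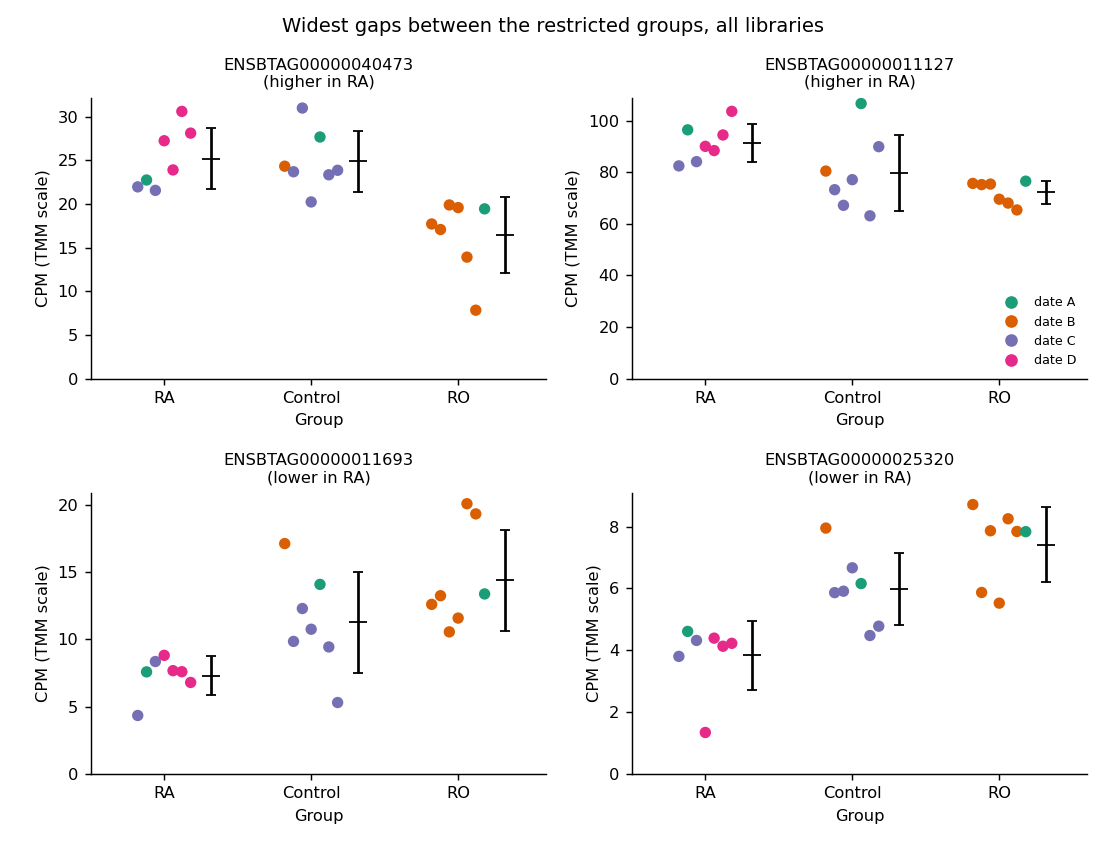
CPM of the 2 members with the widest gap in each direction, with 1 point per library coloured by file-name date and the mean ± SD of each group (n = 7) beside the points. RA and RO points do not overlap in any panel, and the Control points reach into the range of at least 1 restricted group in each.

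At the edge of the definition the members passed into the rest of the genes without a break. The member with the narrowest gap, 4.8e-05 log2 CPM, averaged 14.5 CPM in RA and 19.7 CPM in RO. The next averaged 31.0 and 25.2 CPM with a gap of 0.00038. Just outside, a gene at 62.8 CPM in RA and 54.5 CPM in RO overlapped by 0.00052 log2 CPM, and another at 75.8 and 85.1 CPM by 0.0011. Within 0.01 log2 CPM of the edge there were 20 members and 22 genes that were not members.

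For RA against RO, edgeR's quasi-likelihood test called no member and none of the 13435 genes at an adjusted p of 0.05 (0% called). At an adjusted p of 0.1, 57 of the 88 members passed, with 2.23% of all genes passing. At an unadjusted p under 0.05 the count was 87 of 88, with 20.7% of all genes. Adjusted p-values of members ran from 0.0927 to 0.271. DESeq2 called 478 of the 13435 genes at an adjusted 0.05, 60 of them members, and gave no adjusted p for 5 members. How many of all genes it left without an adjusted p is not given here. Limma-voom called 0 genes, with 2728 under an unadjusted 0.05. Nothing is read from these counts, since the same contrast chose the members.

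The Control libraries took part in the choice only through the gene filter and the scaling. The mean of the Controls lay between the RA and RO means for 85 of 88 members, at 22 of 24 higher and 63 of 64 lower ones. The same held for 47.9% of the other genes and for 89.4% of the 2695 other genes with an unadjusted p under 0.05 for RA against RO. A gene whose restricted groups lie far apart leaves more room between them, so the member count is not set against the 47.9%. On a scale on which the RO mean is 0 and the RA mean is 1, the Control mean had a median of 0.66 over the higher members and 0.51 over the lower ones. It was nearer RA in 51 members and nearer RO in 37. Without Control replicate 7 this turned to 33 nearer RA and 55 nearer RO, with medians of 0.57 over the higher and 0.35 over the lower members, and the Control mean lay between the restricted means in 80 members.

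Single Control values fell on both sides. Of the 616 Control values, 266 lay in the RA range or beyond it, 301 in the RO range or beyond it and 49 in the gap. The gap was narrow in most members, with a median of 0.031 log2 CPM. In 86 of the 88 members at least 1 Control lay in or beyond each of the restricted ranges. All 7 Controls lay on the same side of the midpoint in only 1 member, ENSBTAG00000040473.

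The Controls differed from each other more than their mean shows. Control replicate 7 lay on the RA side in 87 of 88 members and beyond the most extreme RA library in 23. Control replicate 1 lay on the RA side in 8 of 88. The other Controls were on the RA side in 24 (replicate 3), 36 (replicate 4), 40 (replicate 5), 41 (replicate 2) and 60 (replicate 6) members. Among the 13346 other genes, the side was defined in the same way for each gene. Control replicate 7 was then on the RA side in 73.8% of them, Control replicate 1 in 34.8%, and the remaining Controls in 40.0% to 50.0%. Among the 2695 other genes with an unadjusted p under 0.05 the shares were 90.6% for replicate 7 and 22.2% for replicate 1. The order of these 2 Controls was therefore the same outside the members, and it was not tested whether the members differ from other genes in this respect.

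**Figure D3:**
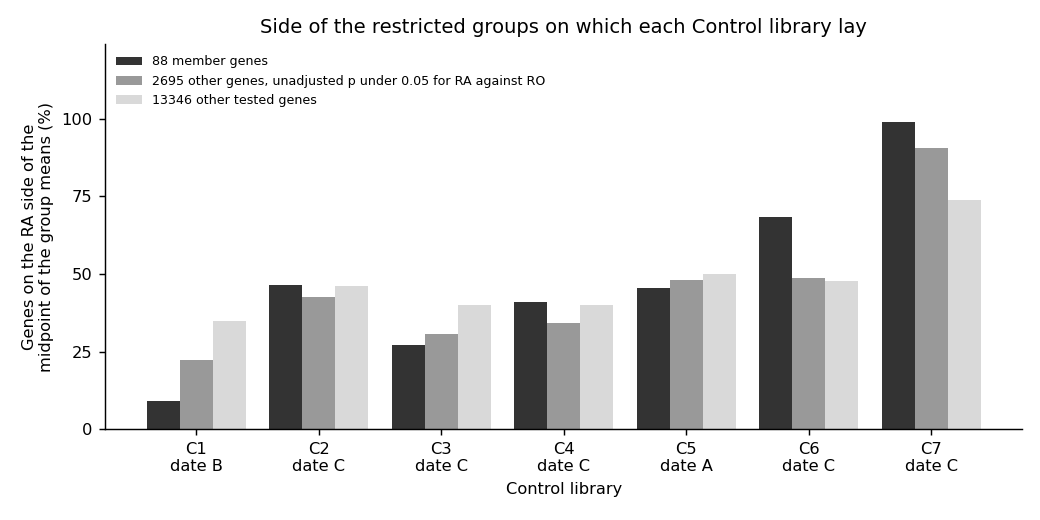
Share of genes (%) for which each Control library lay on the RA side of the midpoint between the RA and RO means, for the 88 members, 2695 other genes with a low p-value and all 13346 other genes. Control replicate 7 (C7) is highest and Control replicate 1 (C1) lowest in all 3 sets.

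Control replicate 5, the library least like its group, differed between the directions. It was on the RA side in 18 of 24 higher members and in 22 of 64 lower members. It lay beyond the RA range in 7 members and beyond the RO range in 9. Its median position on a scale from the RO median (0) to the RA median (1) was 1.45 over the higher and 0.34 over the lower members. Control replicate 7 stood at 1.37 and 1.49 on that scale and Control replicate 1 at 0.19 and 0.020. With Control replicate 5 left out, the mean number of members on the RA side per Control went from 42.3 to 42.7, and with Control replicate 7 left out it went to 34.8.

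**Figure D4:**
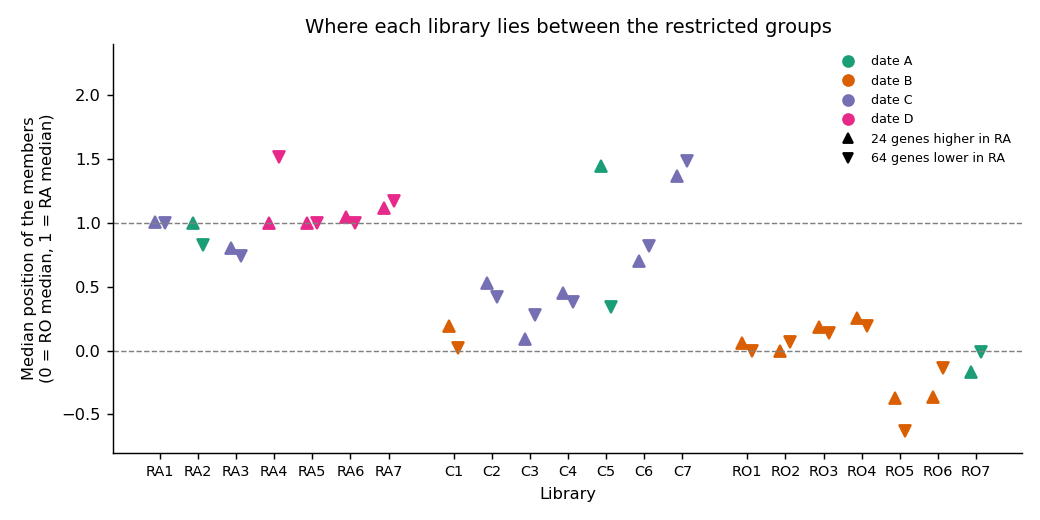
Median position of the 24 higher and 64 lower members in each library, on a scale on which 0 is the RO median and 1 the RA median of each gene, coloured by file-name date. Controls of date C spread from 0.092 to 1.49, and the Control of date B (C1) lies near the RO libraries, most of which share that date.

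The file-name date moved with the groups, and RA and RO shared date A alone. On date A, with 1 library of each group, the median RA minus RO difference of the members, signed so that positive follows the RA direction, was 0.31 log2 CPM against 0.35 over all dates, and its sign is fixed by the choice. Date B held the single Control that lay closest to RO. There, Control minus RO had a median of 0.020 with 57 of 88 members positive, against 0.19 and 86 of 88 over all dates. Among the other genes, 48.1% were positive on date B and 71.0% over all dates. On date C, RA minus Control (2 against 5 libraries) had a median of 0.063 with 73 of 88 members positive, against 0.17 and 87 of 88 over all dates. Without Control replicate 7 the date C values were 0.14 and 81 of 88. Of the other genes, 76.8% were positive over all dates, 58.5% on date C with all 5 Controls and 65.3% on date C without replicate 7. On date A, with 1 library each, RA minus Control had a median of 0.14 with 61 of 88 members positive and Control minus RO a median of 0.17 with 62 of 88. The shares of the other genes that were positive were 53.7% and 61.6%. The only Control of date A was replicate 5, the library least like its group, and the directions differed on that date. Over the higher members Control minus RO was 0.44 on date A against 0.17 over all dates. RA minus Control over the higher members was -0.048 on date A, with 11 of 24 positive, against 0.086 over all dates. Over the lower members RA minus Control was 0.19 in both. These values rest on 1 or 2 libraries in an arm and were not tested. The 5 Controls that share date C were on the RA side in anything from 24 to 87 members. Between RA and RO, date and outcome cannot be told apart.

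Date was also compared inside a group. Among the Controls, the 5 libraries of date C were set against the 2 of other dates. EdgeR called 0 genes at an adjusted 0.05 (0%), DESeq2 called 8 genes, and 8 of 88 members (9.09%) had an unadjusted p under 0.05 where 9.56% of all 12422 genes tested did. Of the members, 66 of 88 followed the RA direction on date C, as did 57.2% of the other genes. The directions split, with 55 of 64 lower members but 11 of 24 higher members following it, and the median log2 difference of the higher members was -0.039. This comparison turned on 1 library. Without Control replicate 1, edgeR called 1014 genes, the other arm then being Control replicate 5 alone, which was assumed to vary like the rest. Among RA libraries, the 4 of date D were set against the 3 of dates A and C. EdgeR called 0 of 12451 genes (0%) and DESeq2 called 10. Of the 86 members tested, 3 (3.49%) had an unadjusted p under 0.05, where 7.91% of all genes did. On date D, 70 of these 86 members followed the RA direction, as did 66.4% of the other genes. The rule used these RA libraries to choose the members, so neither member count is read against the other genes. Without RA replicate 4, the library at the far edge of its group in 39 members, edgeR called 46 genes.

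With date as a covariate in the fit to all 21 libraries, 88 of 88 members kept their sign for RA against RO, and their median fold change in the RA direction went from 0.35 to 0.22 on the log2 scale. No gene was called (0%), and 11 members had an unadjusted p under 0.05, as did 2.17% of all genes. The median SE of the members was 0.096 without date and 0.18 with it, so the fit with date was less precise. The 4 RA libraries of date D do not bear on the RA against RO values of this fit, because no other group holds that date. The fit uses the libraries that chose the members, so the kept signs do not support the set. The log2 fold change of ENSBTAG00000011127 was 0.36 in that fit and 0.34 without date, while that of ENSBTAG00000040473 went from 0.61 to 0.34, that of ENSBTAG00000011693 from -0.98 to -0.57 and that of ENSBTAG00000025320 from -0.94 to -0.55 (edgeR adjusted p = 0.9999 for each).

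Against Controls, no gene passed in edgeR's test for either restricted group (0% called in both), and DESeq2 and limma-voom also called 0. At an unadjusted p under 0.05, 34 of 88 members differed between RA and Control, where 9.26% of all genes did, and 38 of 88 between RO and Control, where 6.43% did. Both comparisons use the restricted libraries that chose the members and share the Controls, so these counts are not evidence of a response to diet. Over the members the median log2 fold change in the RA direction was 0.18 when RA was set against Control, and -0.18 when RO was. Only 1 member separated RA fully from Controls and 1 separated RO fully from Controls, of 9 and 14 such genes among all tested (0.067% and 0.104%).

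The members varied together inside the Control group. Signed to the RA direction, the levels of 2 members correlated across the 7 Controls with a median r of 0.51 over 3828 pairs of members. The median was 0.10 over pairs of other genes and 0.34 over pairs of the 2695 other genes with a low p-value. All pairs share the same 7 libraries. The lower members were the more tightly tied, with a median r of 0.61 among themselves against 0.42 among the higher members, and unsigned levels of higher with lower members gave -0.37. Without Control replicate 7 the median over all pairs of members was 0.21, and without Control replicate 5 it was 0.65. No such values are given for the other genes, so the comparison with them rests on all 7 Controls. Within RA the median over member pairs was 0.24, against 0.077 over other genes and 0.26 over the other genes with a low p-value. Within RO it was 0.36, against 0.16 and 0.46. In both restricted groups the members thus did not exceed the other genes with a low p-value. The spread of single members was ordinary, with a median SD within Controls of 0.22 log2 CPM against 0.23 for the other genes.

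Some libraries decided which genes could be members. RA replicate 3 was the RA library nearest to RO in 33 members, and RO replicate 4 was the RO library nearest to RA in 26. At the far edges stood RO replicate 5, the most extreme RO library in 48 members, and RA replicate 4, the most extreme RA library in 39. Without RO replicate 4 the number of separating genes rose from 88 to 263, without RA replicate 3 to 241 and without RO replicate 1 to 166. Leaving out any other restricted library gave 90 to 125 genes. Leaving out a Control, which can act only through the filter and the scaling, gave 83 to 87 genes, of which 72 to 87 were members.

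**Figure D5:**
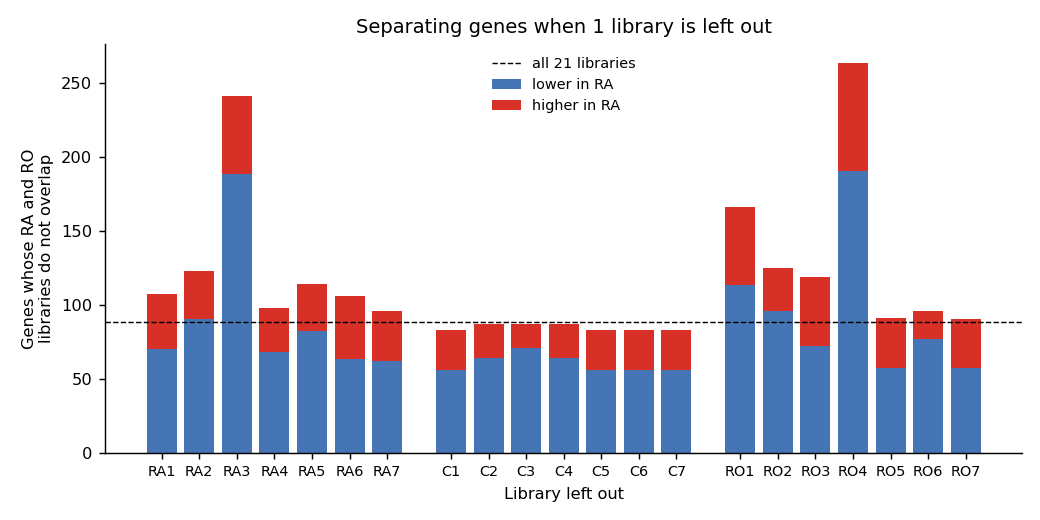
Number of genes whose RA and RO libraries did not overlap when 1 library was left out, with the 88 members as a dashed line. The count is highest without RO replicate 4 (263) and RA replicate 3 (241), and stays at 83 to 87 without any 1 Control.

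The scaling also decided membership, since the gaps were narrow. With RLE scaling 81 genes separated the groups, with upper-quartile scaling 94 and with the library total alone 89, and 76, 67 and 60 of the 88 members were among them. The share of separating genes that were higher in RA was 27.3% with TMM, 28.4% with RLE, 34.0% with upper-quartile scaling and 38.2% with the library total alone. Under all 4 scalings 54 members remained, 14 higher and 40 lower, with a median gap of 0.051 log2 CPM against 0.013 in the other members, and the 4 named members were among them. Control replicate 7 was on the RA side in 53 of these 54 and Control replicate 1 in 5.

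Summed over the members, the higher genes gave 2285 to 2438 CPM in RA, 1896 to 2090.5 CPM in RO and 2093 to 2467 CPM in Controls. The lower genes gave 2635 to 3051 CPM in RA, 3392 to 4189 CPM in RO and 2625 to 3515 CPM in Controls. The Controls covered the RA range at both sums, with replicate 7 at 2467 and 2625 CPM, beyond every RA library on either sum. That RA and RO do not overlap in these sums follows from the choice.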

How the data were processed

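Single-read, polyA-selected RNA-seq libraries of hypothalamus were analysed from the tables that the authors deposited, which hold whole read counts by gene with no scaling. CASAVA 1.4 is named in the submitters' processing notes, as are HTSeq, Bowtie and SAMtools, with no settings. The sources used here give no genome build, annotation or strandedness, so overlapping genes and near-identical copies may share or split reads. Groups came from sample titles. Genes were kept by edgeR 4.0.16 filterByExpr (minimum count 10 scaled to depth in 7 libraries, total 15), leaving 13435 genes with 99.8% of the counts. Log2 CPM used TMM scaling and a prior count of 2. Tests were robust quasi-likelihood F-tests on 3 group means over 21 libraries in R 4.3.3, with Benjamini-Hochberg adjustment over all tested genes. The SE is the fold change over the square root of F. DESeq2 1.42.0 and limma-voom 3.58.1, the latter with a weight estimated for each library, were alternatives. Depth varied 3379050 to 4476586 counts, and members had a median of 159 counts per library. Counting error applies besides the spread between samples. The fit was tested on simulated counts with larger changes than most members had and with no date difference. That test does not bear on the members. Members and lists were chosen with earlier results of these data known. The named genes are the 2 with the widest gap in each direction, the rule for genes without names. Same-numbered libraries did not pair: deviations correlated by -0.045 on average over 21 pairs, 4 of them above 0.1. No pair of libraries agreed within sampling noise (chi-square per degree of freedom at least 2.14 over 210 pairs).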

Additional observations from a re-analysis of the deposited data

Results flagged for a closer look

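Across 28 sets of 7 values, 4 had a highest or lowest library whose distance to the next one exceeded Dixon's 95% critical value, which about 1 set in 20 does by chance. In log2 CPM, RA replicate 1 stood at 2.28 for ENSBTAG00000011693, against 2.87 to 3.22 in the other RA libraries. RA replicate 4 stood at 0.88 for ENSBTAG00000025320, against 2.11 to 2.35. RO replicate 6 stood at 3.06 for ENSBTAG00000040473, against 3.85 to 4.35 in the other RO libraries. In each of these 3 the library lay away from the other restricted group, so it did not narrow the gap. The choice of the genes by their gap favours that side. Control replicate 5 had a mean correlation of 0.927 with the other Controls, against 0.956 to 0.966.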

How the results depend on the processing

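The number of separating genes stayed within 1.5 times of the reported 24 higher and 64 lower under the other scalings, prior counts of 0.5 and 5, no filter (31 and 60) and a stricter filter of 5 CPM in 7 libraries (26 and 56). Leaving out 1 library gave 16 to 73 higher and 56 to 190 lower genes. The higher count moved past 1.5 times without RA replicate 1 (37), 3 (53) or 6 (43) and RO replicate 1 (53), 3 (47) or 4 (73), and the lower count without RA replicate 3 (188) and RO replicate 1 (113) or 4 (190). A set of fewer libraries separates more easily. Leaving out Controls, and the midpoints used for the side of a Control, were added after the data were seen. The mean number of members on the RA side per Control was 41.1 with the midpoint of the gap and 41.9 with that of the medians, and 34.8 to 42.7 leaving out Control replicate 7 or 5.

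For RA against RO, edgeR's 0 genes became 299 at an adjusted p of 0.1 and 478 with DESeq2, and leaving out 1 library gave 0 to 399: without RO replicate 4 it was 399 and without RO replicate 7 it was 1, and it was 17 when RA replicate 3 and 21 when Control replicate 7 was dropped. The cause was not tested. Both comparisons with Control gave 0 genes in each alternative run, 0 to 0 leaving out 1 library. The comparison of dates within RA gave 10 genes by DESeq2, and 0 to 46 by edgeR when any 1 library was dropped. Within Control it gave 8 by DESeq2 and 0 to 1014 by edgeR. With the replicate number as a block, 0 genes were called in each of the 3 comparisons, and 3 of 21 libraries correlated best with their own number. The 4 named genes kept their direction under each alternative run. They were chosen for the widest gaps between these same RA and RO libraries, so the kept directions do not support them.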
